A study of Homo sapiens with 4 samples.

Results

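The genes described here are 43 genes of the human renal proximal tubule, followed in HK-2 cells before and after induction of the PRCC-TFE3 fusion. They were taken from a written list of transporters, brush border and metabolic enzymes, endocytic receptors, injury markers and renal transcription factors. The selection rule used no measured value, but the list was written with earlier results of these data known. Of the 43 listed genes, 42 were matched to transcripts in the deposited data, out of 34080 genes matched in all, and LHX1 had no matched transcript. HK-2 is an immortalised line of human proximal tubule cells. The line used here carries an HA-tagged PRCC-TFE3 gene, a fusion of parts of PRCC and of the transcription factor TFE3, that doxycycline switches on. Polyadenylated RNA was sequenced from 2 cultures without doxycycline, Doxy(-), and 2 cultures given 0.2 microg/ml doxycycline for 24 h, Doxy(+), all of them carrying the transgene. No HK-2 culture without the transgene was analysed here, so effects of doxycycline and of PRCC-TFE3 cannot be told apart. Whether the samples of a group were separate cultures of 1 clone or of several is not stated, and the p-values measure only the spread between these samples, which may be technical.

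The proximal tubule takes back most of what the glomerulus filters. Its apical brush border carries peptidases and sodium-coupled carriers for glucose, phosphate, amino acids and protons, and the receptors megalin and cubilin bring filtered proteins into the cell. The basolateral side returns bicarbonate to the blood and takes up organic ions for secretion. The same cells make glucose from lactate and amino acids, activate vitamin D and answer the hormone FGF23. Lines kept in culture are known to lose much of this programme.

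The libraries held between 14042545 and 16618401 estimated read counts. The transgene carries part of TFE3. TFE3 was counted at 66.9 and 69.0 CPM (reads per 1000000, scaled for library composition) without doxycycline and reached 367 and 322 CPM with it. The fitted log2 ratio of Doxy(+) to Doxy(-) was 2.34 (SE 0.072, adjusted p 4.78e-05 with edgeR). Transcripts identical in length and counts to those of TFE3 stood under 2 unmatched identifiers, so the level of TFE3 is uncertain. PRCC had a log2 fold change of 0.15 (SE 0.11, adjusted p 0.413), which turned negative when TPM values or length-scaled counts were used or without Doxy(+) library 2. TPM, transcripts per 1000000, corrects for transcript length and is used below wherever levels of different genes are set side by side, and CPM wherever one gene is compared between groups. Of 13569 genes with enough reads, edgeR's quasi-likelihood test called 19.3% at a Benjamini-Hochberg adjusted p under 0.05, 9.76% of them higher in Doxy(+) and 9.53% lower, in each case as a share of all genes tested. The median log2 fold change over all tested genes was 0.00062. In bulk RNA, fewer cells that express a gene and less RNA per cell cannot be told apart.

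Uninduced HK-2 cells expressed part of the proximal tubule programme, and most of its defining genes were measured under 1 TPM. A mean of at least 1 TPM in Doxy(-) was reached by 24 of the 42 matched genes, and at least 10 TPM by 13. Of 8 markers that define the proximal tubule, 2 reached 1 TPM, GGT1 and SLC5A2, and limits on both values are given below. LRP2, the endocytic receptor megalin, was counted 0 and 1 times in the Doxy(-) libraries and 0 times in both Doxy(+) libraries. That sum covered 4 matched LRP2 transcripts, the longest of 4007 bases, and left out any reads under unmatched identifiers. It therefore does not show that megalin mRNA was absent. HNF4A, the transcription factor of the mature proximal tubule, had 0 counts in both Doxy(-) libraries and 1 in each Doxy(+) library. The water channel AQP1 had 0 and 1 counts in Doxy(-) and 1 in each Doxy(+) library, and the aminopeptidase ANPEP had 1 and 0 counts against 3 and 3. A count of 0 allows up to 3 counts, 0.204 to 0.233 CPM depending on the library, and this limit covers counting error only. The remaining markers, CUBN (cubilin) and SLC34A1 (a sodium-phosphate carrier), stayed under 1 TPM in all 4 libraries. The summed level of the 8 markers lay between 97.3 and 99.7 TPM in Doxy(-) and between 119 and 120 TPM in Doxy(+), and GGT1 made up most of it. Among the 15 genes with too few reads to test, GLYAT and WT1 had no count in any library.

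**Figure D1:**
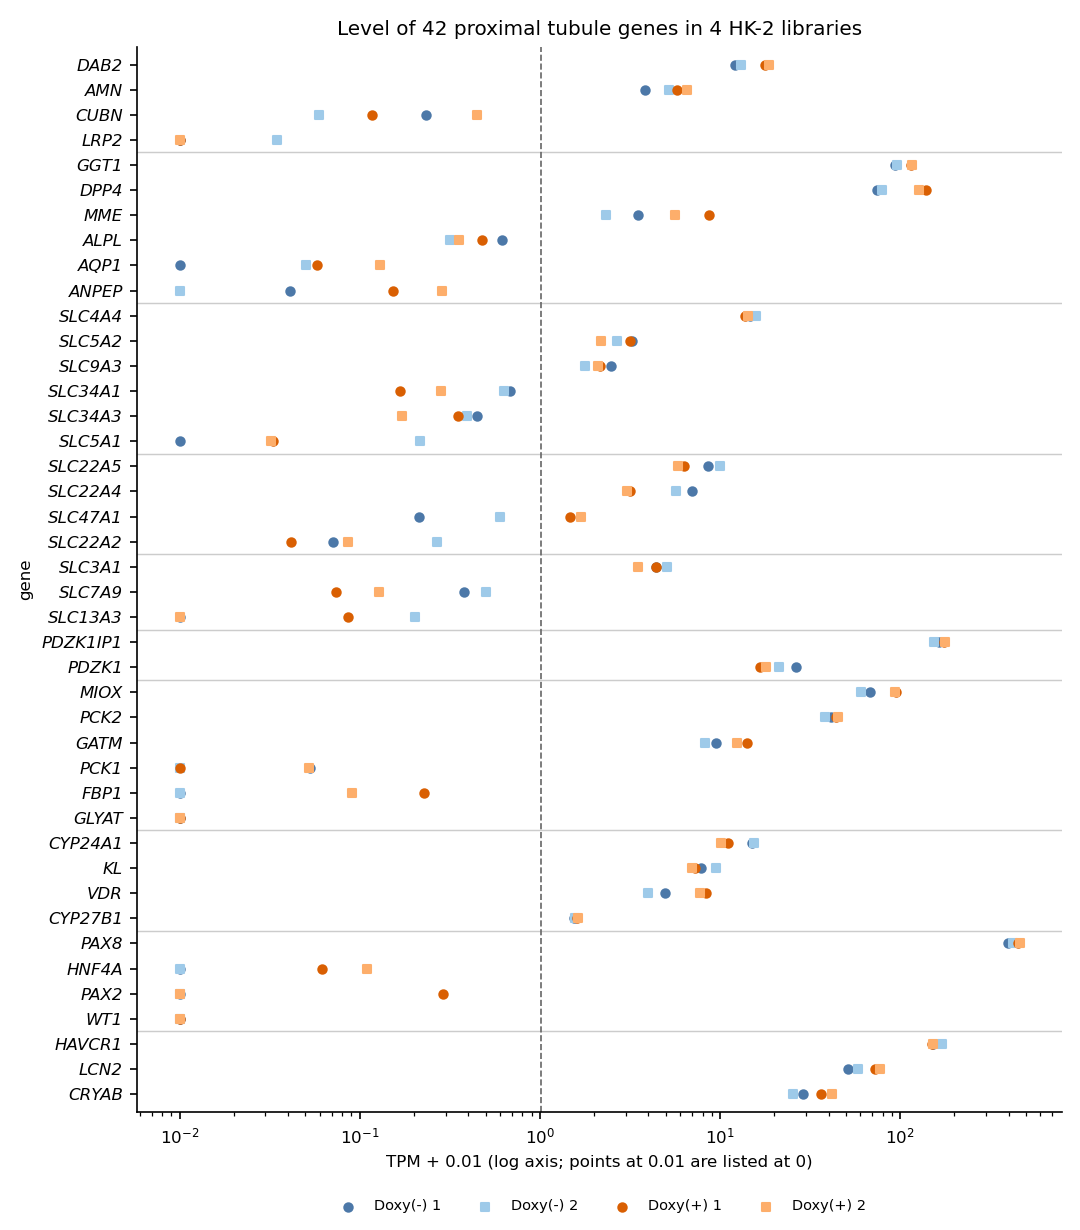
TPM + 0.01 on a log axis for the 42 matched proximal tubule genes, grouped by role from endocytic receptors at the top to injury markers at the bottom. Circles and squares are libraries 1 and 2, blue for Doxy(-) and orange for Doxy(+), and the dashed line marks 1 TPM. In Doxy(-) 24 genes have a mean of at least 1 TPM, led by PAX8 near 400 TPM, while LRP2, AQP1, HNF4A, PCK1 and GLYAT lie at the far left.

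PAX8 had the highest level of the 42 genes, with 398 and 424 TPM in Doxy(-) and 448 and 462 TPM in Doxy(+). PAX8 is a transcription factor of the nephron lineage, and it is kept in adult tubules and in most renal tumours. HAVCR1, which encodes the injury marker KIM-1, followed at 151 and 171 TPM in Doxy(-), beside PDZK1IP1 at 164 and 154 TPM. The libraries overlap between these genes, so no order can be given for HAVCR1 and PDZK1IP1. GGT1 (93.1 and 96.3 TPM), DPP4 (74.7 and 79.6), MIOX (68.2 and 60.4) and LCN2 (51.0 and 58.4) came next, in ranges that did not overlap. For AMN, SLC5A2 and CYP27B1, which all exceeded 1 TPM, 30.1%, 25.0% and 45.1% of the reads were placed on protein-coding transcripts, and exons of each overlap those of another gene. Their gene-level values are therefore uncertain as measures of coding mRNA. Exons of GGT1 also overlap those of another gene, on the same strand. Of its Doxy(-) level, 41.6 and 45.7 TPM were placed on 1 transcript of 853 bases. The level of GGT1 is therefore uncertain as well.

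Of the 27 proximal tubule genes with enough reads to test, 9 were higher in Doxy(+) (33.3%, against 9.76% of all tested genes) and 4 were lower (14.8%, against 9.53%), while 14 did not pass. The median log2 fold change of the 27 was 0.10, with 15 above and 12 below 0. MME alone also passed the study's second limit, a log2 fold change over 1 in size, which 1.98% of all tested genes passed together with the first. SLC34A1 and SLC47A1 passed the filter on low counts through the level of 1 group only, and neither was called. The genes that rose were the brush border enzymes MME, DPP4 and GGT1, an endocytic adaptor, metabolic enzymes, VDR and LCN2, whereas those that fell were the carriers SLC22A4 and SLC22A5, the scaffold PDZK1 and CYP24A1. Summed over the 42 genes, the level was 1198 and 1233 TPM at the lowest and highest in Doxy(-), and 1403 and 1416 TPM in Doxy(+).

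**Figure D2:**
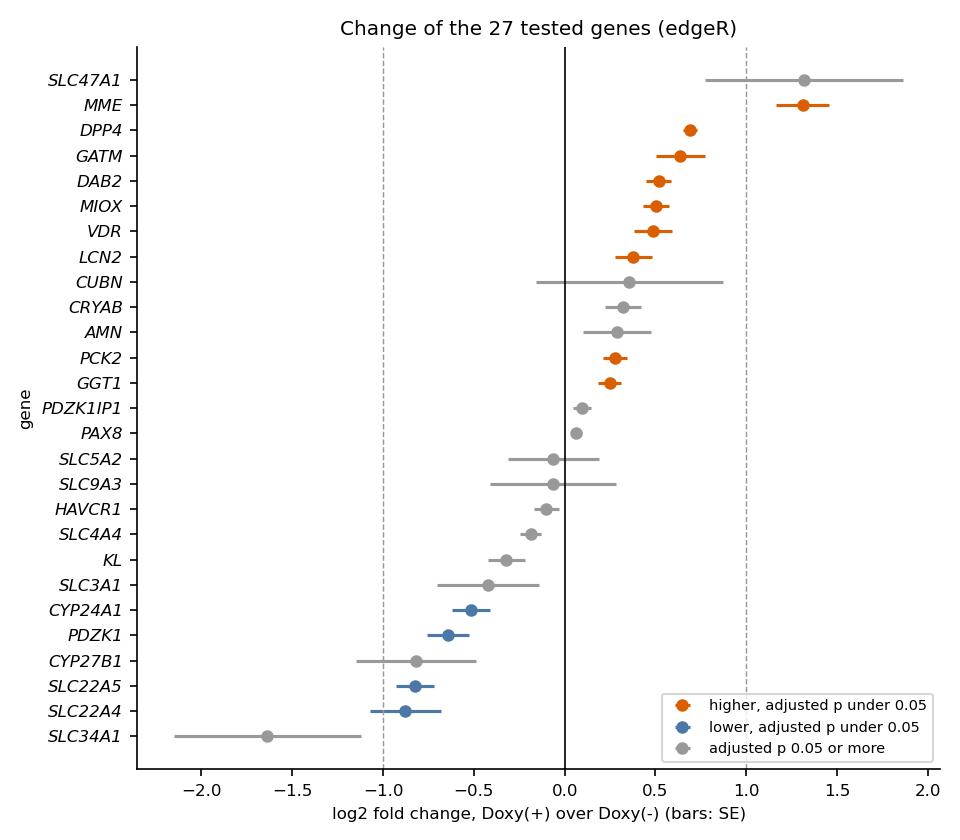
Log2 fold change, Doxy(+) over Doxy(-), of the 27 tested genes with the SE of the edgeR fit as bars. Orange and blue points passed an adjusted p of 0.05 as higher (9 genes) and lower (4 genes), grey points did not (14 genes), and dashed lines mark a log2 fold change of 1 in size. MME is the one coloured point beyond them, at 1.31.

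The number of calls depended on the libraries and on the tool. DESeq2, which the study's methods name, did not call GGT1, SLC22A4, PCK2, GATM, VDR, CYP24A1 or LCN2. With 1 library left out, an arm keeps a single sample that is assumed to vary like the pair of the other group. The count of higher and lower genes was then 6 and 4 without Doxy(-) library 1, 6 and 4 without Doxy(-) library 2, 4 and 1 without Doxy(+) library 1, and 4 and 2 without Doxy(+) library 2. Calls over all tested genes also went down in these fits, from 2618 to 2541, 2426, 1212 and 1328 in the same order. DAB2, MME, DPP4, MIOX and SLC22A5 kept their call in all 4 of these fits. DPP4 and MIOX kept it in all 15 alternative analyses at the same threshold.

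Of the 6 listed brush border genes 3 could be tested, the peptidases MME and DPP4 and the transferase GGT1, and these 3 rose, where 9.76% of all tested genes did. MME is neprilysin, a membrane peptidase that cleaves small signalling peptides, and lies on the plus strand at chr3:155024124-155183704 (hg38). It had 4.71 and 4.86 CPM in the 2 Doxy(-) libraries, against 12.6 and 11.2 CPM in the 2 Doxy(+) libraries. Both Doxy(+) libraries were more than 2 times above both Doxy(-) libraries, a 2.48-fold rise (log2 fold change 1.31, SE 0.15, edgeR adjusted p 0.00264). On log2(TPM + 1) with limma the change was 1.05. The call was lost with limma at both pseudocounts, 1 and 0.1, with an adjusted p of 0.0787 at 0.1. DPP4 is dipeptidyl peptidase 4, which removes dipeptides from incretins and other peptides, and lies on the minus strand at chr2:161992245-162074394. DPP4 measured 172 and 180 CPM in Doxy(-), and 281 and 287 CPM once induced. The spread within each group was small beside the gap, and the log2 fold change was 0.69 (SE 0.039, adjusted p 0.000281), a 1.61-fold rise. GGT1 is gamma-glutamyltransferase 1, which starts the breakdown of glutathione outside the cell. It stood at 68.7 and 69.4 CPM uninduced, compared with 78.05 and 86.1 CPM in Doxy(+). The fitted change was 0.25 in log2 (SE 0.063, adjusted p 0.041), and the call was lost whichever library was left out, with an adjusted p of 0.0778 without Doxy(-) library 1, 0.062 without Doxy(-) library 2, 0.0605 without Doxy(+) library 1 and 0.223 without Doxy(+) library 2. ALPL, the tissue-nonspecific alkaline phosphatase, had between 5 and 12 counts per library and was not tested.

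Among the endocytic genes DAB2, an adaptor that links megalin to clathrin, rose while the matched counts of the receptors stayed low. DAB2 had 29.1 and 30.8 CPM in the 2 Doxy(-) libraries, against 41.7 and 44.1 CPM in the 2 Doxy(+) libraries, a log2 fold change of 0.52 (SE 0.068, adjusted p 0.00455). Its adjusted p was 0.0539 on log2(TPM + 1) with limma. AMN, the membrane partner of cubilin, had 3.802 and 5.19 TPM in Doxy(-) and 5.75 and 6.53 TPM in Doxy(+), and did not pass (log2 fold change 0.29, adjusted p 0.346). CUBN was estimated at 11.1 and 6.07 reads in Doxy(-) and at 11.0 and 9.71 reads in Doxy(+), and its groups overlapped (adjusted p 0.683).

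Of the 6 metabolic enzymes 3 could be tested and rose, where 9.76% of all tested genes did, and the 3 that could not, FBP1, PCK1 and GLYAT, had at most about 1 count in each library. MIOX, the oxygenase that opens myo-inositol and is largely restricted to the renal tubule, measured 48.4 and 42.9 CPM in Doxy(-), and 64.8 and 64.6 CPM once induced. Its log2 fold change was 0.50 (SE 0.071, adjusted p 0.00581), with both Doxy(+) libraries above both Doxy(-) libraries. GATM, which makes the creatine precursor guanidinoacetate, stood at 7.76 and 8.57 CPM uninduced, compared with 13.5 and 11.9 CPM in Doxy(+). It rose by 0.64 (SE 0.13, adjusted p 0.0234), a call lost without Doxy(-) library 1 (adjusted p 0.0564), Doxy(+) library 1 (0.129) and Doxy(+) library 2 (0.0506). PCK2, the mitochondrial phosphoenolpyruvate carboxykinase, had 56.7 and 51.4 CPM in the 2 Doxy(-) libraries, against 64.2 and 66.7 CPM in the 2 Doxy(+) libraries. This was a log2 fold change of 0.28 (SE 0.067, adjusted p 0.0365), lost without Doxy(-) library 2 (0.0903), Doxy(+) library 1 (0.115) and Doxy(+) library 2 (0.172). PCK1, the cytosolic enzyme of gluconeogenesis, was not detectable at this depth, with at most 1.005 estimated counts in any library.

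**Figure D3:**
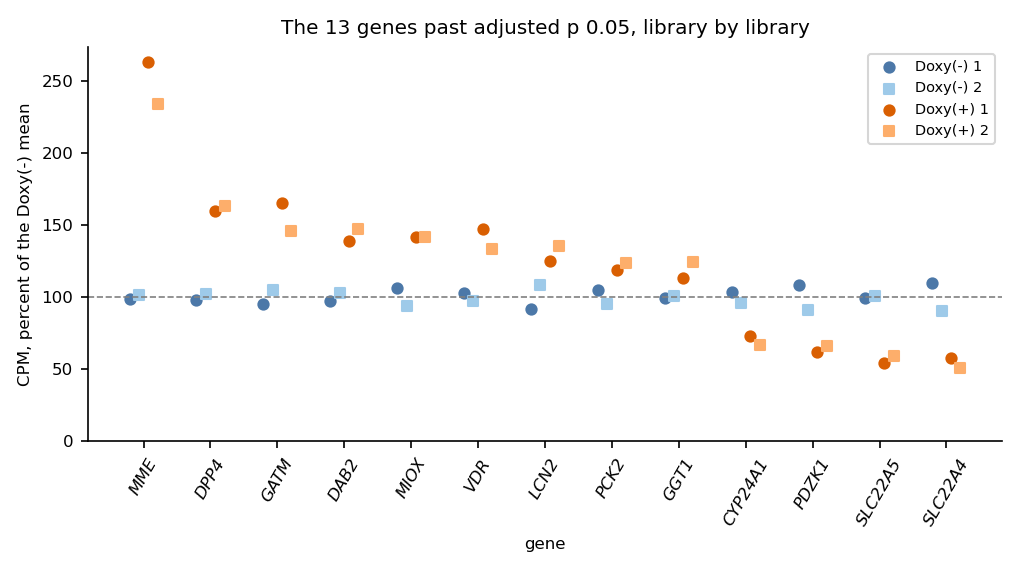
CPM of the 13 called genes in each library as a percentage of the gene's Doxy(-) mean, from 0 on a linear axis, ordered by fold change. Circles and squares are libraries 1 and 2, blue for Doxy(-) and orange for Doxy(+), and the dashed line marks 100. The genes run from MME at the left to SLC22A4 at the right. They were drawn because edgeR called them, so the separation of blue and orange points adds no support to the calls.

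Of the organic cation and carnitine carriers 3 could be tested. SLC22A4 and SLC22A5, the ones with a mean of at least 1 TPM in Doxy(-), fell, where 9.53% of all tested genes did. SLC22A5, or OCTN2, is the sodium-dependent carnitine carrier, and SLC22A4, or OCTN1, carries ergothioneine and organic cations. Both lie on the plus strand of chromosome 5, SLC22A4 at chr5:132294394-132344190 and SLC22A5 downstream of it at chr5:132369710-132395613. SLC22A5 measured 18.3 and 18.6 CPM in Doxy(-), and 9.95 and 10.9 CPM once induced. It fell by 0.82 on the log2 scale (SE 0.10, adjusted p 0.004), which is 1.77-fold lower. In TPM the gap was smaller, with 8.52 and 10.02 TPM in Doxy(-) against 6.28 and 5.82 TPM in Doxy(+), and the limma fit on log2(TPM + 1) gave -0.54 (adjusted p 0.096). SLC22A4 stood at 7.87 and 6.46 CPM uninduced, compared with 4.12 and 3.65 CPM in Doxy(+). It fell by 0.88 (SE 0.20, adjusted p 0.0282), which is 1.84-fold lower, but the call was lost without Doxy(-) library 1 (0.0926), Doxy(+) library 1 (0.0847) and Doxy(+) library 2 (0.122). SLC22A2, the basolateral cation carrier OCT2, had 1 to 5 counts per library. SLC47A1, the apical exporter MATE1, was estimated at 3.24 and 10.1 reads in Doxy(-) and 15.4 and 15.9 in Doxy(+) and did not pass (adjusted p 0.153).

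PDZK1, a scaffold with PDZ domains that holds several apical carriers, OCTN1 and OCTN2 among them, also fell. It had 26.4 and 22.2 CPM in the 2 Doxy(-) libraries, against 15.0 and 16.1 CPM in the 2 Doxy(+) libraries. The decrease was 1.56-fold (log2 fold change -0.64, SE 0.12, adjusted p 0.0142), and without Doxy(+) library 1 its adjusted p was 0.0691. Transcripts identical in length and counts to those of PDZK1 stood under 3 unmatched identifiers, so its reads were divided and its level is uncertain. PDZK1IP1, the membrane partner MAP17, was at 164 and 154 TPM in Doxy(-) and 176 and 178 TPM in Doxy(+) and did not pass (log2 fold change 0.10, adjusted p 0.246).

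TFE3 and its relatives are known to bind CACGTG and TCATGTG, and the 250 bases before the start of each gene in RefSeq (GRCh38.p14) were searched for these letters. CACGTG reads the same on both strands, TCATGTG was searched on both, and no stretch of letters can match both in full. CACGTG was in 4 of the 34 genes with a listed window (AMN, DPP4, ALPL and SLC22A4), in 7.73% of all 27305 genes with a window and in 6.34% of all 35116 windows. TCATGTG was in 2 of the 34 (MME and SLC34A3), in 3.11% of all such genes and in 2.52% of all windows. Of the 11 called genes with a window, 2 held CACGTG and 1 held TCATGTG, and these 3 included genes that rose and a gene that fell. Their windows are printed because they join a motif to a measured change, each 5′ to 3′ on the strand of the gene, with the match in capitals. The DPP4 window is chr2:162074216-162074465 (minus strand), that of SLC22A4 chr5:132294144-132294393 (plus strand) and that of MME chr3:155079422-155079671 (plus strand), where the match is the reverse complement of TCATGTG.
DPP4: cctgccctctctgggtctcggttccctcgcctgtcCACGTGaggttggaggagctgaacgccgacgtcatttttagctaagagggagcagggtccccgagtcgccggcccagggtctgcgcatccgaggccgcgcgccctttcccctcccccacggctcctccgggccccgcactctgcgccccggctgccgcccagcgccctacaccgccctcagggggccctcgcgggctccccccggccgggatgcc
SLC22A4: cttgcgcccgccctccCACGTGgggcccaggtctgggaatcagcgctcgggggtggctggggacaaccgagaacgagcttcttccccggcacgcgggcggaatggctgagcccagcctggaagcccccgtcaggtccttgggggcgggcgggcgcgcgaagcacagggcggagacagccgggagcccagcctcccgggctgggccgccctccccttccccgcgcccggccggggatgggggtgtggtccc
MME: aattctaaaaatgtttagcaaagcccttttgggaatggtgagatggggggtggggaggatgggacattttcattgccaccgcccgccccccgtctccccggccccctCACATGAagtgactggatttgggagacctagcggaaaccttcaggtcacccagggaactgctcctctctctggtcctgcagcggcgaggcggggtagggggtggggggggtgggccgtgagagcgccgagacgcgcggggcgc
The match began 215 bases upstream of the start in DPP4, 234 in SLC22A4 and 143 in MME. The MME window ends at the base before the annotated first exon of MME-203. A match in these windows is a description of the letters and not of binding.

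None of the 4 tested carriers for phosphate, glucose, protons and bicarbonate passed, where 19.3% of all tested genes did. SLC4A4, the basolateral sodium-bicarbonate cotransporter NBCe1, had the highest level among them, with 14.7 and 15.9 TPM in Doxy(-) and 13.8 and 14.2 TPM in Doxy(+). The fitted log2 fold change was -0.19 (SE 0.056, adjusted p 0.0668). Of these 4 carriers edgeR gave 2 an unadjusted p under 0.05, SLC4A4 and SLC34A1. DESeq2 called none of the 4, and limma none of the 3 it tested. SLC34A1, the phosphate carrier NaPi-IIa, was estimated at 17 and 16 reads in Doxy(-) and 3 and 7 in Doxy(+), a log2 fold change of -1.64 (SE 0.51, adjusted p 0.0779), and none of these reads were placed on a protein-coding transcript. SLC5A2, the glucose carrier SGLT2, and SLC9A3, the sodium-proton exchanger NHE3, had log2 fold changes of -0.06 each (adjusted p 0.891 and 0.923), both of which changed sign when 1 library was left out. SLC3A1, the heavy subunit of the cystine carrier, was at 4.42 and 5.07 TPM in Doxy(-) and 4.42 and 3.49 TPM in Doxy(+), with overlapping groups (adjusted p 0.358). SLC5A1, SLC34A3, SLC7A9 and SLC13A3 had at most 10 counts in any library and were not tested.

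In the vitamin D and FGF23 axis, the receptor rose and the catabolic enzyme fell with edgeR. DESeq2 called neither, with an adjusted p of 0.159 for VDR and 0.128 for CYP24A1. VDR, the nuclear receptor for calcitriol, measured 13.73 and 12.95 CPM in Doxy(-), and 19.6 and 17.8 CPM once induced. Its log2 fold change was 0.49 (SE 0.10, adjusted p 0.0242), lost without Doxy(-) library 2 (0.073), Doxy(+) library 1 (0.116) and Doxy(+) library 2 (0.052). CYP24A1, the hydroxylase that inactivates calcitriol and a known VDR target, stood at 19.01 and 17.6 CPM uninduced, compared with 13.4 and 12.3 CPM in Doxy(+). It fell by 0.51 (SE 0.10, adjusted p 0.021), lost without Doxy(-) library 1 (0.0603), Doxy(+) library 1 (0.0569) and Doxy(+) library 2 (0.1002). CYP27B1, the activating hydroxylase, had 25 counts in each Doxy(-) library and 13 and 14 in Doxy(+) (log2 fold change -0.82, adjusted p 0.142). Its TPM values went against this, with 1.53 and 1.55 in Doxy(-) and 1.59 and 1.61 in Doxy(+), and its exons overlap METTL1 on the same strand. KL, or Klotho, the co-receptor for FGF23, was at 7.85 and 9.47 TPM in Doxy(-) and 7.29 and 6.97 TPM in Doxy(+). KL did not pass (log2 fold change -0.32, adjusted p 0.0839) but was called without Doxy(-) library 1 (-0.44, adjusted p 0.025).

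Within VDR most reads were placed on one transcript in Doxy(-) and on another in Doxy(+). The gene lies on the minus strand at chr12:47841537-47943048. Transcript VDR-202, whose annotated first exon is the most upstream of the gene at chr12:47942863-47943048, took an estimated 163 and 182 reads in Doxy(-) and 29.6 and 3.79 reads in Doxy(+). VDR-201 took 7.97 and 7.89 reads in Doxy(-) and 199 and 211 reads in Doxy(+). VDR-202 thus held 91.9% and 95.9% of the gene's matched reads in Doxy(-) and 11.7% and 1.59% in Doxy(+). VDR-201 held 4.50% and 4.15% in Doxy(-) and 78.9% and 88.4% in Doxy(+). A transcript identical in length and counts to one of VDR stood under 1 unmatched identifier. Reads of VDR were therefore divided, and its level and these shares are uncertain. The length of VDR-201 in the deposited files, 4773 bases, is not the 3404 bases of the annotation used here, so its first exon is not placed. VDR-203, whose annotated first exon lies inside the gene at chr12:47904955-47905016, took 6.33 and 0 reads in Doxy(-) and 17.2 and 16.9 in Doxy(+). In an edgeR fit across all 45331 transcripts with enough reads, chosen after these values had been seen, VDR-201 had a log2 fold change of 4.73 (SE 0.25, unadjusted p 9e-05, adjusted p 0.117) and VDR-202 one of -3.24 (unadjusted p 0.0393, adjusted p 0.473). Neither passed, and the division of reads between transcripts that share most exons is itself an estimate. That fit called 0.0176% of all transcripts and 0 of the 88 tested transcripts of these proximal tubule genes. Of the 88, 16 had an unadjusted p under 0.05. The share of all transcripts under that limit was not counted, so the 16 are not read as a result.

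**Figure D4:**
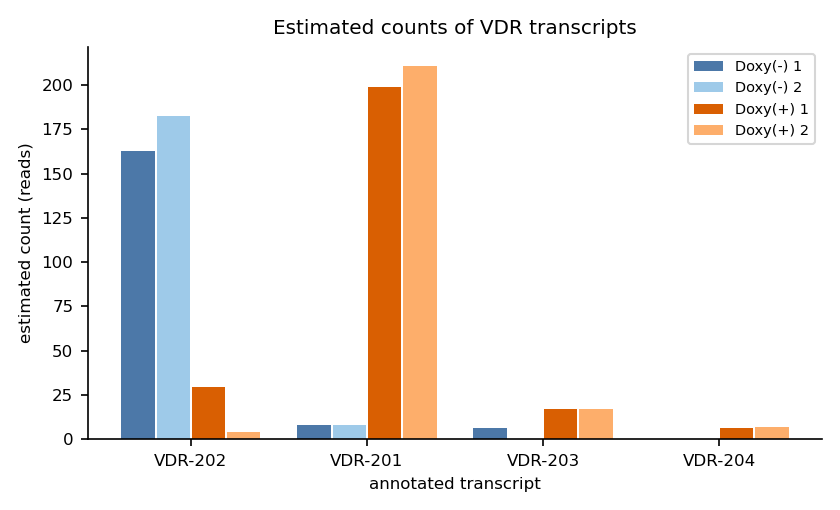
Estimated read counts of 4 VDR transcripts in each library, as bars from 0 (blue for Doxy(-), orange for Doxy(+)). VDR-202 stands at 163 and 182 reads in Doxy(-) and at 29.6 and 3.79 in Doxy(+), while VDR-201 is near 8 reads in Doxy(-) and at 199 and 211 in Doxy(+), and neither difference passed the transcript-level test.

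Transcripts of other genes also differed in estimated reads, and those named here were chosen after their values were seen. PAX8-204 took 50.5 and 60.1 reads in Doxy(-) and about 0 in Doxy(+), and GATM-205 took none in Doxy(-) and 13.6 and 23.6 reads in Doxy(+). MME-210 took no reads in Doxy(-) and 28.6 and 41.0 reads in Doxy(+), and MME-203 took 32.6 and 34.8 reads in Doxy(-) and 90.9 and 72.7 in Doxy(+). None of these passed the transcript fit, with an adjusted p of 0.239 for PAX8-204, 0.332 for GATM-205, 0.269 for MME-210 and 0.352 for MME-203. HAVCR1 as a gene did not pass, with 158 and 181 CPM in Doxy(-) and 156 and 161 CPM in Doxy(+) (log2 fold change -0.10, adjusted p 0.361), although it was called at -0.20 without Doxy(-) library 1 (adjusted p 0.0244). Its transcript HAVCR1-201 took 409 and 579 reads in Doxy(-) and 650 and 691 in Doxy(+), while HAVCR1-203 took 955 and 1172 against 766 and 724. Neither passed (adjusted p 0.367 and 0.307).

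LCN2 was the injury gene that passed with edgeR, and DESeq2 did not call it. LCN2, or NGAL, a secreted carrier of bacterial siderophores released by injured tubules, had 24.3 and 28.8 CPM in the 2 Doxy(-) libraries, against 33.3 and 35.9 CPM in the 2 Doxy(+) libraries. It rose by 0.38 (SE 0.10, adjusted p 0.0474), lost without Doxy(-) library 1 (0.0988), Doxy(+) library 1 (0.108) and Doxy(+) library 2 (0.195). CRYAB, a small heat shock protein, was at 29.0 and 25.5 TPM in Doxy(-) and 36.1 and 41.6 TPM in Doxy(+) and did not pass (log2 fold change 0.32, adjusted p 0.0756). With the reads of 4 unmatched copies added, CRYAB was called (0.33, adjusted p 0.0288), and its exons overlap HSPB2 on the other strand. Among the transcription factors PAX8 was the one with enough reads to test and did not pass (log2 fold change 0.06, SE 0.031, adjusted p 0.217), and PAX2 had 1 count in 1 library.

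Beyond the listed genes, 128 further genes of the proximal tubule were followed in 5 lists. Of these, 78 had enough reads, 12 rose (15.4%, against 9.76% of all tested genes) and 17 fell (21.8%, against 9.53%), with a median log2 fold change of -0.036. Without Doxy(-) library 1 the counts were 9 and 14, without Doxy(-) library 2 they were 10 and 16, without Doxy(+) library 1 they were 7 and 6 and without Doxy(+) library 2 they were 7 and 8. In the list of brush border and apical endocytosis genes, 5 of 14 tested rose (35.7%) and 3 fell (21.4%). CLCN5, the endosomal chloride-proton exchanger mutated in Dent disease, rose from 5.52 and 6.78 CPM to 31.0 and 28.9 CPM (log2 fold change 2.27, SE 0.13, adjusted p 0.000265). CTNS, the lysosomal cystine exporter mutated in cystinosis, rose from 20.6 and 24.5 CPM to 49.6 and 51.3 CPM (log2 fold change 1.16, SE 0.092, adjusted p 0.000779), and its exons overlap TAX1BP3 on the other strand.

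Of 20 other carriers tested, 2 rose and 3 fell (10% and 15%, near the 9.76% and 9.53% of all tested genes). SLC6A20, a carrier of proline, fell from 13.4 and 13.8 CPM to 8.26 and 8.57 CPM (log2 fold change -0.69, adjusted p 0.00995), and its adjusted p was 0.0528 without Doxy(+) library 1. SLC17A3, an apical urate carrier, fell from 34 and 25 counts to 8 and 9 (log2 fold change -1.73, SE 0.40, adjusted p 0.0318), a call lost without Doxy(-) library 1 (0.168), Doxy(+) library 1 (0.144) and Doxy(+) library 2 (0.125). Among 13 other enzymes 2 rose and 1 fell (15.4% and 7.69%). ALDH8A1, an aldehyde dehydrogenase, had 4.78 and 3 reads in Doxy(-) and 17.7 and 16.6 in Doxy(+) (log2 fold change 2.16, edgeR adjusted p 0.0301). ALDH8A1 and SLC17A3, both in the counts above, passed the filter on low counts through the level of 1 group only. Their calls are therefore not read as support for a change. The call of ALDH8A1 was lost whichever library was left out, with adjusted p values of 0.0696 and 0.157 without Doxy(-) library 1 and 2, and 0.151 and 0.121 without Doxy(+) library 1 and 2. Among 14 other transcription factors 1 rose and 2 fell (7.14% and 14.3%). PPARGC1A, the coactivator of mitochondrial and gluconeogenic genes, rose from 6.44 and 6.94 CPM to 18.3 and 22.4 CPM (log2 fold change 1.60, SE 0.14, adjusted p 0.00111). TFAP2A, a transcription factor of epithelial development, fell from 8.45 and 7.63 CPM to 4.39 and 5.24 CPM (log2 fold change -0.73, adjusted p 0.0346), lost without Doxy(-) library 1 (0.0932), Doxy(+) library 1 (0.154) and Doxy(+) library 2 (0.0724).

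In the list of injury and dedifferentiation genes, 2 of 17 tested rose (11.8%, against 9.76% of all tested genes) and 8 fell (47.1%, against 9.53%). VIM, the intermediate filament vimentin of dedifferentiated tubule cells, fell from 1540 and 1539 CPM to 1071 and 1092 CPM (log2 fold change -0.51, SE 0.026, adjusted p 0.000216). CD24, a surface protein of progenitor-like tubule cells, fell from 294.0 and 294.1 CPM to 189 and 185 CPM (log2 fold change -0.65, SE 0.034, adjusted p 0.000216). TIMP2, a metalloproteinase inhibitor used as a urinary marker of tubule stress, rose from 386 and 388 CPM to 544 and 558 CPM (log2 fold change 0.51, SE 0.030, adjusted p 0.000316).

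**Figure D5:**
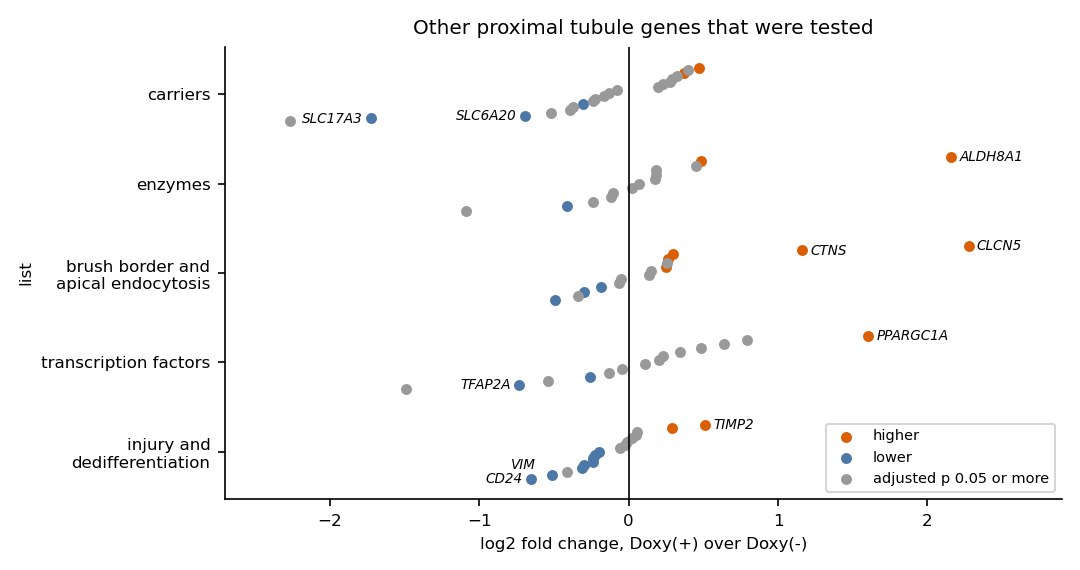
Log2 fold change, Doxy(+) over Doxy(-), of the 78 tested genes of 5 further proximal tubule lists, 1 point a gene, ordered within each list. Orange and blue points passed an adjusted p of 0.05 as higher (12 genes) and lower (17 genes), and grey points did not. CLCN5, CTNS, ALDH8A1 and PPARGC1A lie farthest to the right among called genes, and SLC17A3 farthest to the left. ALDH8A1 and SLC17A3 passed the filter on low counts through 1 group only.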

How the data were processed

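Per the labels, RNA was extracted with TRIzol and libraries were made with a TruSeq stranded kit. The authors' notes name Trim Galore 0.6.6, cutadapt 2.5, STAR 2.7.9a and hg38, and their methods name RSEM and DESeq2, but the deposited tables have the column layout of kallisto over 180253 Ensembl transcripts. Which quantifier version, Ensembl release and strand setting were used is not given in the sources used here. The deposited estimated counts (expected counts, not whole) and the deposited TPM values, which sum to 1000000 per library, were summed per gene through GENCODE release 44. Of the identifiers 83.6% matched, giving 34080 genes, and the unmatched 29562 carried 9.66% to 9.89% of the counts and stayed out of tests. Of the matched identifiers 80.9% had the annotated length.

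Sums were rounded and tested in R 4.3.3 with edgeR 4.0.16 (glmQLFit, glmQLFTest, TMM scaling, filterByExpr, group as the only term), with Benjamini-Hochberg adjustment over all 13569 genes tested and a threshold of 0.05. Fold changes are Doxy(+) over Doxy(-), and SE is the standard error implied by the F statistic. The script was tested on simulated counts. The main fit did not pair libraries by replicate number, and whether a shared number marks a shared culture is not stated. Alternatives used other size factors and filters, DESeq2 1.42.0, limma 3.58.1 on log2(TPM + pseudocount), length-scaled counts, other treatment of unmatched identifiers, a replicate block and leaving out each library. Named are called genes and those with at least 5 TPM in a group, TFE3, PRCC, and from each further list called genes whose log2 change exceeds 0.5 either way, or else the gene with the smallest p. Genes and lists were chosen with earlier results of these data known. Promoter windows came from RefSeq. The VDR, PAX8, GATM, MME and HAVCR1 transcripts were singled out after their values had been seen.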

Additional observations from a re-analysis of the deposited data

How the results depend on the processing

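The 27 tested genes gave 9 higher and 4 lower calls, and the 78 further genes 12 and 17. DESeq2 gave 4 higher and 2 lower calls among the first, and 8 higher and 11 lower among the second. Limma on log2(TPM + 1) and on log2(TPM + 0.1) each gave 4 higher, 0 lower (4 lower at an unadjusted p under 0.05) and 0 past both limits (1 and 2 at an unadjusted p under 0.05), and among the further genes 7 higher and 4 lower. Length-scaled counts gave 5, 2 and 2 past both limits, and 7 and 7. Testing unmatched identifiers beside the genes gave 4 and 1, and 7 and 9. A threshold of 0.01 gave 4 and 1, and 7 and 8. Calls over all tested genes also went down, from 2618 to 1555 with DESeq2 and 1260 with length-scaled counts. Limma at pseudocounts of 1 and 0.1 gave 904 and 889 calls in all, with 24 of the listed genes tested. With unmatched identifiers included, genes and identifiers together gave 1441 calls, and the threshold of 0.01 gave 1175. The lower counts are thus not particular to the listed genes. Leaving out 1 library gave 4 to 6 higher, 1 to 4 lower and 1 to 2 past both limits, and 7 to 10 and 6 to 16 among the further genes, and the count of genes at 1 TPM stayed 24. The cause of these changes was not tested. Estimates near 0 changed sign as follows. With 1 library left out, CUBN ranged from -0.095 (without Doxy(-) library 2) to 0.95, SLC5A2 from -0.32 to 0.16 (without Doxy(+) library 2), SLC9A3 from -0.36 to 0.29 (without Doxy(-) library 1), HAVCR1 from -0.20 to 0.0016 (without Doxy(-) library 2) and PRCC from -0.029 (without Doxy(+) library 2) to 0.30. SLC9A3 was at 0.0020 and 0.0082, CYP27B1 at 0.033 and 0.050 and PRCC at -0.15 and -0.15 with limma at pseudocounts of 1 and 0.1, and length-scaled counts gave 0.066 for CYP27B1 and -0.19 for PRCC. Of the values of single genes under all alternatives, 513 kept direction and side of the threshold, 97 lost the call, 5 gained it and 13 changed sign.

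With the replicate number as a block, the counts were 9 and 4 and the same 13 genes were called. Deviations of libraries with the same number correlated at -0.173 over 9609 genes, so the crossed pairing was added after seeing the data, and it gave 7 and 3, without GGT1, LCN2 and SLC22A4.

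With 2 libraries a group, low genes were limited by depth: 15 of the 42 matched genes were not tested, and no statement on their change can be made.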

Other observations

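Markers of other nephron segments and of other cell types were read in the same libraries. Of 12 markers of the thick ascending limb and distal tubule, CLDN16 and CALB1 reached 1 TPM and 3 were tested. Of these 3 edgeR called none, where it called 19.3% of all tested genes, with 1 at an unadjusted p under 0.05. DESeq2 called none of the 3, and limma none of the 2 it tested. SLC12A3, the thiazide-sensitive cotransporter, had the smallest p of that list. It took 7.01 and 6.08 reads in Doxy(-) and 24.1 and 16 in Doxy(+) (log2 fold change 1.67, edgeR adjusted p 0.0522). SLC12A3 passed the filter on low counts through its Doxy(+) level only. Of 14 collecting duct markers SCNN1A and HSD11B2 reached 1 TPM. None of the 3 tested was called by edgeR, against 19.3% of all tested genes, with 0 at an unadjusted p under 0.05. DESeq2 called none either. Limma tested 2 and called none, with 1 at an unadjusted p under 0.05. SCNN1A, a subunit of the epithelial sodium channel, was at 12.9 TPM in each Doxy(-) library and at 17.5 and 16.1 TPM in Doxy(+) (log2 fold change 0.24, adjusted p 0.172). The summed level of the collecting duct markers was 16.05 to 17.3 TPM in Doxy(-) and 21.4 to 21.9 TPM in Doxy(+).

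Of 7 podocyte markers 3 were tested, and 1 rose and 1 fell (33.3% each, against 9.76% and 9.53% of all tested genes). NPHS1, the slit diaphragm protein nephrin, rose from 1 and 2 counts to 17 and 14.1 (log2 fold change 3.34, SE 0.59, edgeR adjusted p 0.0129). It stayed under 1 TPM in all 4 libraries. NPHS1 passed the filter on low counts through its Doxy(+) level only, so its call is not read as support for a change. SYNPO, an actin-binding protein of podocytes, fell (log2 fold change -0.23, adjusted p 0.0341), and DESeq2 called neither. With 1 library left out, the adjusted p of NPHS1 was 0.0691 and 0.0515 without Doxy(-) library 1 and 2 and 0.0891 and 0.0534 without Doxy(+) library 1 and 2, and that of SYNPO was 0.0921 without Doxy(-) library 2, 0.174 without Doxy(+) library 1 and 0.145 without Doxy(+) library 2. Of 12 markers of cells that are not epithelial, 3 were tested, and 1 rose and 1 fell (33.3% each, against 9.76% and 9.53%). CD68, a lysosomal membrane protein used to mark macrophages, rose from 144 and 149 CPM to 190.2 and 188.8 CPM (log2 fold change 0.37, adjusted p 0.00208), and COL1A1 fell (log2 fold change -0.40, adjusted p 0.0414), a call lost without Doxy(-) library 1 (0.133), Doxy(+) library 1 (0.098) and Doxy(+) library 2 (0.17).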
